A study of Mus musculus with 10 samples.

Results

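The collagen genes of mouse intestinal organoids were described across 5 treatment groups. Members were all genes of the deposited table whose symbol reads Col, a number, the letter a and a number, with a mouse Ensembl gene identifier, and there were 44 of them among 47069 genes. They fell into 11 fibrillar, 6 basement membrane, 6 beaded filament, 3 network, 9 FACIT (fibril-associated with interrupted triple helices), 2 multiplexin, 1 anchoring fibril and 4 transmembrane genes, and 2 that fit none of these classes. Of the 44, 37 passed the filter on low counts and were tested. *Col2a1*, *Col4a3*, *Col9a1*, *Col17a1*, *Col19a1*, *Col22a1* and *Col26a1* did not, and none of these 7 had more than 10 counts in any library.

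RNA-seq was performed on 10 libraries, 2 in each group, from organoids grown for 50 days in Matrigel with Noggin, EGF and R-spondin 1. All cultures came from C57BL/6 mice that carry *Lgr5-EGFP-CreERT2* and floxed *Ppp2r1a*, which encodes the scaffold subunit A alpha of the phosphatase PP2A, and in this design Cre is made in Lgr5+ cells and becomes active with tamoxifen (TAM). The groups were control (saline), DMBA (the mutagen 7,12-dimethylbenz[a]anthracene, labelled long), TAM short and TAM long (2 tamoxifen groups named so in the labels, and both dosage-sensitive there), and the combination of DMBA and tamoxifen (DMBA+TAM). The labels do not define short or long, and the library names do not spell the treatment: they begin with NS for control, NL for DMBA, DSS_S for TAM short, DSS_L for TAM long and Lgr5 for DMBA+TAM. If the S or L that ends the first 4 of these names marks a further difference, DMBA and the letter L cannot be told apart in comparison with control, and TAM long differs from control in both letter and treatment. For these libraries it is not stated whether those of a group came from separate mice or cultures, so p-values may measure the spread between these libraries only.

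Collagens are proteins of 3 chains wound into a triple helix, made mostly by fibroblasts and other stromal cells. Fibrillar collagens are secreted as procollagens, trimmed by proteases and cross-linked into the fibrils that give a tissue its strength, and FACIT collagens sit on the surface of these fibrils. Type IV collagen is the sheet of the basement membrane under every epithelium and around vessels and muscle, type VI forms beaded filaments beside it, and the short chains of types VIII and X form lattices. In the intestine the epithelium rests on such a basement membrane, while the fibrils lie in the lamina propria and submucosa.

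The libraries had 8828247 to 10923673 counts outside DMBA+TAM and 1592366 and 1915270 in DMBA+TAM, so that 3 counts correspond to 0.258 to 0.378 and to 1.32 to 1.58 normalised CPM (counts scaled by TMM totals). *Ppp2r1a*, the floxed gene, stood at 123 and 129 CPM in control, 130.3 and 147 in TAM short, 167 and 152 in DMBA, 169 and 157 in TAM long, and 129 and 133 in DMBA+TAM, so its level, counted over the whole gene with the floxed exons not separable, was not below control in any group given tamoxifen. The DMBA+TAM libraries stood apart from the other 8. The summed level of 10 epithelial markers was 27.7 to 41.6 CPM in DMBA+TAM against 16760 to 26750 CPM elsewhere, with all 10 lower against control (35.3% of all genes tested) and none without a count, so the labelled epithelial tissue was nearly absent by its markers. Markers of fibroblasts (4775 to 5241 against 221 to 824 CPM), macrophages (5000 to 5320 against 133 to 336 CPM), endothelium (708 to 711 against 74.2 to 141 CPM) and fat cells (1381 to 3175 against 57.0 to 227 CPM) stood above all other libraries, and markers of skeletal muscle stood at 6.32 CPM in DMBA+TAM replicate 1 and 7703 in replicate 2. Smooth muscle markers summed to 7360 to 13120 CPM in DMBA and TAM long, 1245 to 2349 in control and TAM short, and 1509 to 1667 in DMBA+TAM. None of these markers is a collagen gene, and their part in the collagen levels was not tested. In bulk RNA, fewer cells of a type and less RNA per cell cannot be told apart.

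Levels of single genes are given as normalised FPKM, that is counts scaled by the gene length in the table and by the TMM total, which allows genes to be compared. Fold changes and adjusted p-values come from edgeR's quasi-likelihood test over 16179 genes, and "past the threshold" means an adjusted p under 0.05.

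The DNA before the start site is shown for 3 members: *Col10a1* and *Col8a1*, network genes that rose in DMBA+TAM, and *Col3a1*, the most abundant collagen gene of every library. The sequences are from RefSeq on GRCm38.p6 and run 5′ to 3′ on the strand of the gene over the 250 bases before its start. Capitals mark 3 motifs, searched on either strand, namely the TATA box as TATAAA (reverse complement TTTATA), the GC box as GGGCGG (reverse complement CCGCCC) and the CCAAT box (reverse complement ATTGG). *Col10a1* (ENSMUSG00000039462, chr10:34389981-34397085) lies on the plus strand with the window chr10:34389731-34389980, *Col8a1* (ENSMUSG00000068196, chr16:57624258-57754737) on the minus strand with chr16:57754738-57754987, and *Col3a1* (ENSMUSG00000026043, chr1:45311538-45349706) on the plus strand with chr1:45311288-45311537.
Col10a1: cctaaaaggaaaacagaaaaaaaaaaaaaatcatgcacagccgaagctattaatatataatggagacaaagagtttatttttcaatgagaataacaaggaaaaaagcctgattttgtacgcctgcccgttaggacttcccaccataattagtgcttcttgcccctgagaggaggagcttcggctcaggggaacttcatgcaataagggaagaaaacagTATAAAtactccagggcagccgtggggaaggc
Col8a1: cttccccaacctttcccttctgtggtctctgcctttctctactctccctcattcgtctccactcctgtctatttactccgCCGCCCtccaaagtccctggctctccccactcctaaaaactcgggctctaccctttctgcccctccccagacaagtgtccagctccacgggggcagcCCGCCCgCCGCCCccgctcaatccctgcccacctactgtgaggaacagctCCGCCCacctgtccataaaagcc
Col3a1: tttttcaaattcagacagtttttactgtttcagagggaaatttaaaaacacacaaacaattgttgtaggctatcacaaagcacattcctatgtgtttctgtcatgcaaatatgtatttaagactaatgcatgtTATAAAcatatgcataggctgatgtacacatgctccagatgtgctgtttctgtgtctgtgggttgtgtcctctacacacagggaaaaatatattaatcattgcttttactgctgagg
The *Col10a1* window holds TATAAA with its first base 32 bases before the start, and no GGGCGG or CCAAT. The *Col8a1* window has the reverse complement CCGCCC of GGGCGG 4 times, first bases 170, 73, 66 and 23 before the start, and no TATAAA, while *Col3a1* has TATAAA 117 bases before it. RefSeq windows were matched for 35 of 44 members (38 windows). GGGCGG was found in 22 of these 38 windows (57.9%), against 32.7% of all 32851 promoter windows of this length, CCAAT in 13 (34.2% against 33.9%) and TATAAA in 5 (13.2% against 12.4%). None of the matches in these 3 windows overlap, and a match is a description of the window and not a binding site.

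The summed level of the collagen genes, most of it fibrillar, was higher in the combination of DMBA and tamoxifen than in any other group. Summed over the 44 genes, the level was 331.5 and 287 FPKM in control, 172 and 139 in TAM short, 617 and 529.8 in DMBA, 306 and 379.6 in TAM long, and 8117 and 7930 in DMBA+TAM. The DMBA+TAM mean of 8023 ± 133 (SD, n = 2) was 25.9 times that of control (309 ± 31.3), while the TAM short libraries were below both control libraries and the DMBA libraries above them. TAM long overlapped with control. As a share of all counts, collagen genes took 0.0740% to 0.408% of the libraries outside DMBA+TAM and 5.44% and 5.54% within it.

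Of 37 members tested, 27 rose and 2 fell in DMBA+TAM against control, where 64.3% of all genes tested were called, 29.0% higher and 35.3% lower. Against DMBA 26 were higher and 3 lower (55.1% of all genes called, 25.2% higher, 29.9% lower), against TAM long 26 and 3 (55.2%, with 25.3% and 29.9%), and against TAM short 28 and 1 (63.1%, with 29.3% and 33.8%). The median log2 fold change against control was 3.31 for the members and -0.17 for all genes tested. In all 4 comparisons, which share the DMBA+TAM libraries, the same 25 members were higher (67.6% of the 37, against 18.4% of all genes tested), and *Col6a4* was lower (19.5% of all genes tested). Among those higher, *Col10a1* had at most 2 and *Col6a6* at most 3 counts in any library outside DMBA+TAM. These genes passed the filter only through DMBA+TAM, so a rise there was the only call open to them, and they are part of each count of rises. Without DMBA+TAM replicate 2, the library with skeletal muscle RNA, 27 members were higher and 1 lower against control, and without replicate 1, 25 and 1.

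**Figure D1:**
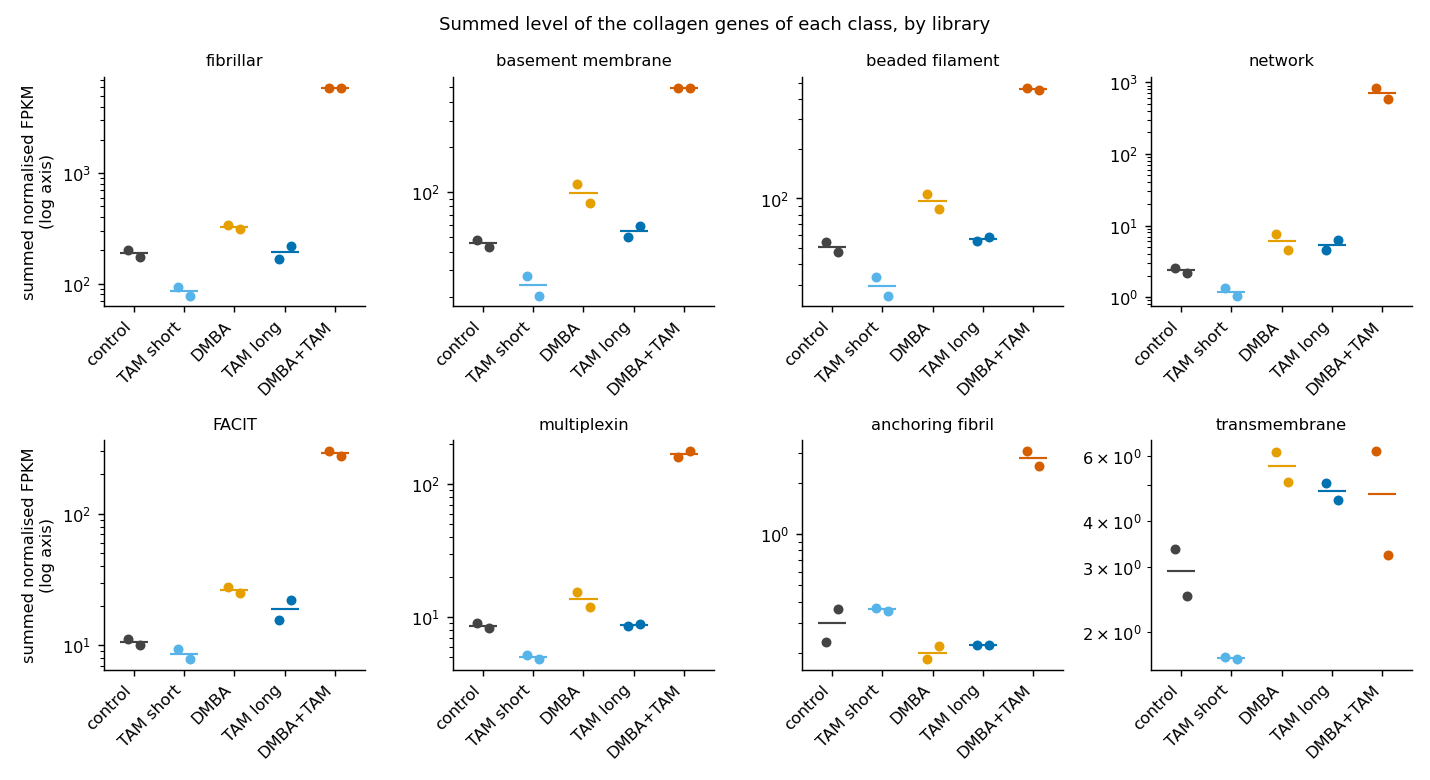
Summed normalised FPKM of the collagen genes of 8 classes (log axis) in each of the 5 groups, with 1 point per library and a line at the mean of 2 libraries. The DMBA+TAM libraries are above all others in 7 classes, with 5836 and 5939 FPKM for the fibrillar genes, and the transmembrane genes are the exception.

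The fibrillar genes made up most of the collagen RNA in every library, 54.3% to 61.1% of the summed level outside DMBA+TAM and 71.9% and 74.9% within it. Their sum in DMBA+TAM was 5888 ± 72.9 FPKM, against 325.5 ± 21.1 in DMBA, 193 ± 37.5 in TAM long, 188 ± 20.1 in control and 85.5 ± 11.3 in TAM short (mean ± SD, n = 2 each). Of 10 tested, 9 rose in DMBA+TAM against control (29.0% of all genes tested), with a median log2 fold change of 5.10, and *Col11a2* (0.37) did not pass.

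*Col3a1*, the chain of type III collagen of pliable tissues such as gut wall and vessels, was the most abundant member in all 10 libraries. It stood at 101.0 and 88.2 FPKM in control, 44.8 and 36.8 in TAM short, 179.7 and 160.5 in DMBA, 93.3 and 127 in TAM long, and 2433 and 2410 in DMBA+TAM. Both TAM short libraries were below control, both DMBA libraries above it, TAM long straddled it, and DMBA+TAM stood far above all. The log2 fold change against control was 4.68 ± 0.21 (SE, adjusted p = 6.93e-08) in DMBA+TAM, 0.85 ± 0.19 (0.00438) in DMBA and -1.21 ± 0.19 (0.00266) in TAM short, and 0.22 ± 0.18 in TAM long did not pass.

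*Col1a1* and *Col1a2* encode the chains of type I collagen, the main fibril of connective tissue, which assembles from 2 chains of the former and 1 of the latter. *Col1a1* had 38.9 and 31.9 FPKM in control, 12.9 and 10.51 in TAM short, 48.9 and 46.9 in DMBA, 16.7 and 22.0 in TAM long, and 1271 and 1401 in DMBA+TAM. It was below control in both TAM groups with no overlap, 3.02-fold in TAM short (adjusted p = 0.000542) and by 0.87 ± 0.18 on the log2 scale in TAM long (0.00343), and rose 37.7-fold in DMBA+TAM (log2 5.24 ± 0.21, 3.64e-08). *Col1a2* had 45.7 and 39.4 FPKM in control, 24.2 and 21.3 in TAM short, 66.6 and 68.8 in DMBA, 34.8 and 40.9 in TAM long, and 1451 and 1505 in DMBA+TAM. It changed by 5.12 ± 0.18 on the log2 scale in DMBA+TAM, 0.67 ± 0.15 in DMBA (adjusted p = 0.00467) and -0.91 ± 0.15 in TAM short (0.00368), while TAM long overlapped with control (-0.17 ± 0.15).

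The 2 chains of type I collagen therefore did not keep a fixed ratio. *Col1a1* to *Col1a2* stood at 0.849 and 0.811 in control, 0.735 and 0.682 in DMBA, 0.533 and 0.494 in TAM short, 0.478 and 0.537 in TAM long, and 0.876 and 0.931 in DMBA+TAM. Both TAM groups were below control and DMBA+TAM above it without overlap, but with 2 libraries a group this is a description. The ratio of *Col3a1* to *Col1a1*, chosen after the values were seen, ran from 2.60 and 2.76 in control through 5.596 and 5.77 in TAM long to 1.91 and 1.72 in DMBA+TAM. By the length column, *Col1a1* thus held rank 3 among the members in control, DMBA replicate 2 and DMBA+TAM, and ranks 5 to 7 in the other 5 libraries. These ranks depend on the length used. With the deposited FPKM, *Col1a1* stood above *Col1a2* in control (ratios 1.21 and 1.16), DMBA replicate 1 (1.05) and DMBA+TAM (1.25 and 1.33).

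*Col5a2*, a chain of type V collagen, which starts fibrils and limits their width, had 8.74 and 6.95 FPKM in control, 5.84 and 4.62 in TAM short, 23.9 and 18.7 in DMBA, 11.5 and 16.7 in TAM long, and 387 and 347 in DMBA+TAM. Unlike the chains of types I and III it was above control in TAM long as well (log2 0.84 ± 0.22, adjusted p = 0.0104), beside 1.44 ± 0.22 in DMBA (0.000538) and 5.55 ± 0.26 in DMBA+TAM (7.4e-08). Its partner *Col5a1* rose by 5.09 and *Col5a3* by 6.32 on the log2 scale in DMBA+TAM. The ratio of *Col5a1* to *Col5a2* was 0.692 ± 0.0687 in control, 0.568 ± 0.00950 in DMBA, 0.528 ± 0.0629 in TAM short, 0.500 ± 0.0430 in DMBA+TAM and 0.470 ± 0.0267 in TAM long (mean ± SD, n = 2). *Col11a1*, a chain of the thin fibrils of cartilage and stroma, had 5 and 1 counts in control and 408 and 196 in DMBA+TAM (log2 8.69 ± 0.86), and *Col27a1* (3.31) and *Col24a1* (1.65 ± 0.61, adjusted p = 0.0368) rose less. *Col24a1* had 0.237 and 0.151 FPKM in control and 0.959 and 0.308 in DMBA+TAM, so most of its rise lay in replicate 1. It did not pass against TAM long (adjusted p = 0.0616).

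**Figure D2:**
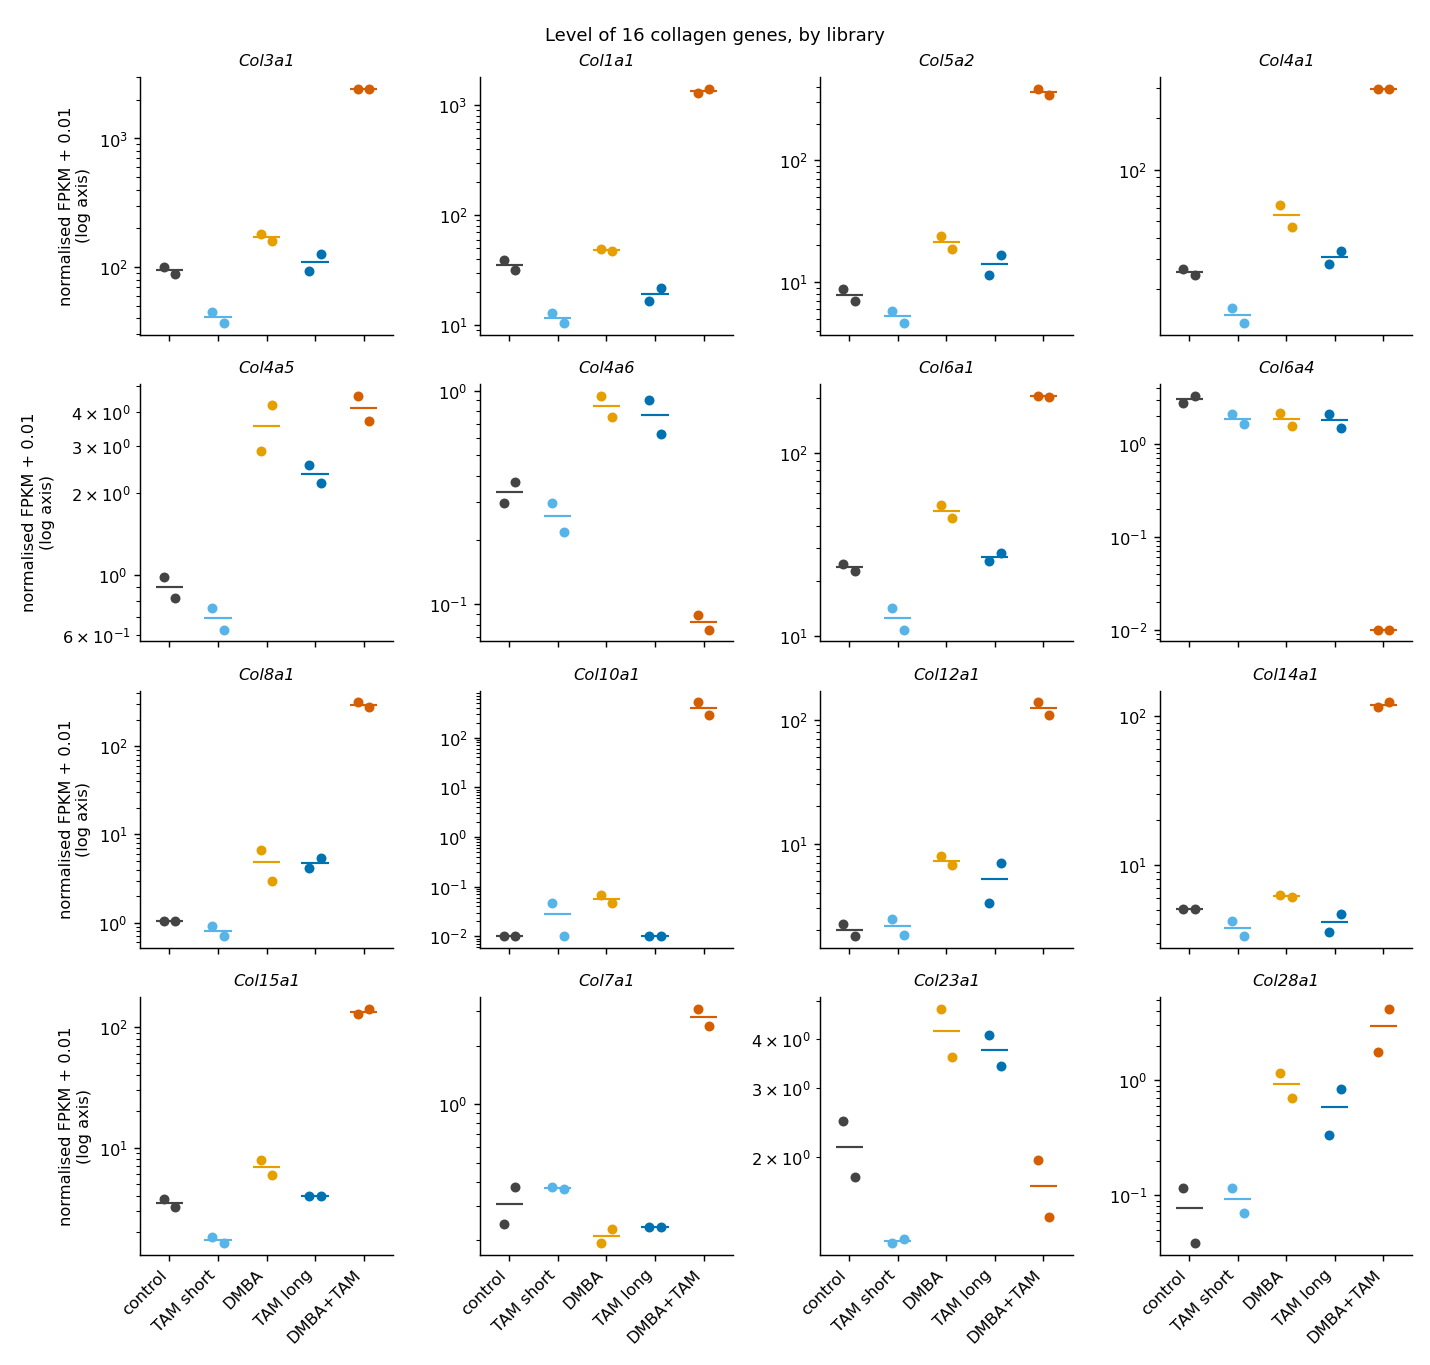
Level of 16 collagen genes in normalised FPKM plus 0.01 (log axis) in each group, with 1 point per library and a line at the mean of 2 libraries. *Col3a1*, *Col8a1* and *Col10a1* are highest in DMBA+TAM, while *Col4a6* and *Col6a4* are lowest there and *Col23a1* overlaps between DMBA+TAM and control.

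Basement membrane genes rose less than fibrillar genes in DMBA+TAM and split by chain. Of 5 tested, 3 rose, *Col4a6* fell and *Col4a4* (log2 0.23) did not pass, where 29.0% of all genes tested were higher and 35.3% lower, and the sum went from 45.3 ± 3.61 FPKM in control to 497 ± 2.66 in DMBA+TAM. Their share of the collagen level was 14.4% to 18.2% outside DMBA+TAM and 6.14% and 6.24% in it, with a class sum 10.96 times that of control where the fibrillar sum was 31.3 times.

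*Col4a1* and *Col4a2*, the chains of the type IV network found in all basement membranes, lie head to head on opposite strands of chromosome 8. Their RefSeq starts are 21 bases apart, with no gap between the genes, whose exons overlap by 22 bases. *Col4a1* had 26.1 and 24.2 FPKM in control, 15.4 and 12.6 in TAM short, 62.3 and 45.9 in DMBA, 27.9 and 33.3 in TAM long, and 297 and 298 in DMBA+TAM. *Col4a2* had 20.4 and 17.1 in control, 10.6 and 6.62 in TAM short, 46.3 and 33.8 in DMBA, 18.6 and 22.6 in TAM long, and 196 and 193 in DMBA+TAM. Both genes were lower in TAM short and higher in DMBA than in control without overlap. Log2 fold changes of *Col4a1* were 3.57 ± 0.19 in DMBA+TAM (adjusted p = 1.78e-07), 1.11 ± 0.18 in DMBA and -0.84 ± 0.18 in TAM short (0.0122), and those of *Col4a2* were 3.38 ± 0.25, 1.10 ± 0.23 and -1.12 ± 0.23 (0.0117). Their ratio was 1.35 ± 0.0963 in control, 1.35 ± 0.00686 in DMBA, 1.53 ± 0.0198 in DMBA+TAM, 1.49 ± 0.0135 for TAM long and 1.68 ± 0.321 for TAM short. Single libraries ran from 1.28 to 1.91.

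*Col4a5* and *Col4a6*, the chains of another type IV network that is known around smooth muscle, also lie head to head, on the X chromosome, with starts 1343 bases apart, and they went apart in DMBA+TAM. *Col4a5* had 0.967 and 0.809 FPKM in control, 0.742 and 0.617 in TAM short, 2.85 and 4.24 in DMBA, 2.53 and 2.18 in TAM long, and 4.59 and 3.70 in DMBA+TAM. *Col4a6* had 0.289 and 0.362 in control, 0.288 and 0.208 in TAM short, 0.938 and 0.742 in DMBA, 0.893 and 0.620 in TAM long, and 0.0792 and 0.0661 in DMBA+TAM. Both were above control in DMBA and TAM long, where log2 fold changes were 1.99 ± 0.24 and 1.40 ± 0.24 for *Col4a5* and 1.37 ± 0.34 and 1.22 ± 0.34 for *Col4a6*. In DMBA+TAM, *Col4a5* rose by 2.21 ± 0.26 against control (adjusted p = 3.99e-05) and did not differ past the threshold from DMBA (0.23 ± 0.24). *Col4a6* was left with 1 count in each DMBA+TAM library against 17 and 20 in control, a ratio of 4.49 (95% exact interval of counting error, 1.16 to 38.5), and passed the threshold (edgeR, adjusted p = 0.0194). This call was lost without control replicate 2 (adjusted p = 0.0553), DMBA+TAM replicate 1 (0.068) or replicate 2 (0.116) and with DESeq2 (0.0996), library size only (0.0829), only the groups compared (0.0565), limma on log2(FPKM + 1) (0.0878) and thinned counts (0.202). As above, smooth muscle markers were also high in DMBA and TAM long and not in DMBA+TAM, and their part in these values was not tested.

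The multiplexins *Col15a1* and *Col18a1*, which link basement membranes to the matrix beneath, both rose in DMBA+TAM and both fell in TAM short. *Col15a1* had 3.75 and 3.23 FPKM in control, 1.79 and 1.61 in TAM short, 7.93 and 5.87 in DMBA, 3.93 and 3.98 in TAM long, and 127.5 and 141 in DMBA+TAM. *Col18a1*, whose product releases endostatin, had 5.27 and 5.03 in control, 3.43 and 3.22 in TAM short, 7.45 and 6.01 in DMBA, 4.66 and 4.94 in TAM long, and 33.2 and 36.9 in DMBA+TAM. *Col15a1* changed more than *Col18a1*, with log2 fold changes against control of 5.26 ± 0.18 against 2.77 ± 0.14 in DMBA+TAM and -1.04 ± 0.17 against -0.63 ± 0.13 in TAM short. The difference between these genes was not tested. *Col7a1*, which forms the anchoring fibrils below an epithelium, had 0.232 and 0.364 FPKM in control, 0.366 and 0.354 in TAM short, 0.183 and 0.218 in DMBA, 0.223 in both TAM long libraries, and 3.08 and 2.52 in DMBA+TAM. It rose in DMBA+TAM (log2 3.23 ± 0.30, adjusted p = 8.21e-06) and passed in none of the other comparisons with control.

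Of the 6 beaded filament genes, 4 rose, *Col6a4* fell and *Col6a5* did not pass (log2 -0.09) in DMBA+TAM against control, where 29.0% of all genes tested were higher and 35.3% lower. *Col6a1*, *Col6a2* and *Col6a3* encode the classical chains of type VI collagen, which assemble together. *Col6a1* had 24.8 and 22.5 FPKM in control, 14.2 and 10.8 in TAM short, 52.1 and 43.9 in DMBA, 25.6 and 28.2 in TAM long, and 205 and 203 in DMBA+TAM. *Col6a2* had 19.1 and 15.5 in control, 11.5 and 9.08 in TAM short, 35.3 and 30.5 in DMBA, 19.2 and 19.6 in TAM long, and 138 and 136 in DMBA+TAM. Both were low in TAM short, high in DMBA and highest in DMBA+TAM, and their ratio stayed between 1.19 and 1.49 in all libraries. *Col6a3* had 7.26 and 5.28 in control, 4.83 and 3.76 in TAM short, 15.5 and 10.04 in DMBA, 7.31 and 8.44 in TAM long, and 122 and 111.5 in DMBA+TAM. Log2 fold changes in DMBA+TAM were 3.11 ± 0.16, 2.99 ± 0.16 and 4.22 ± 0.26 in this order, so *Col6a3* had the larger value, and in TAM short -0.92 ± 0.15, -0.75 ± 0.15 and -0.54 ± 0.23, the last of which did not pass (adjusted p = 0.154).

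*Col6a4*, a chain related to that of *Col6a3*, was the only member called lower in all 4 comparisons of DMBA+TAM. It had 182 and 204 counts in control, 139 and 95 in TAM short, 178 and 102 in DMBA, 181 and 112 in TAM long, and 0 in both DMBA+TAM libraries. This is at least 15.5-fold lower than control, at least 9.42-fold lower than DMBA, at least 9.16-fold lower than TAM long and at least 9.53-fold lower than TAM short, with 3 counts set in each DMBA+TAM library. *Col6a4* was also lower in DMBA (log2 -0.72 ± 0.25, adjusted p = 0.0412) and TAM long (-0.76 ± 0.25, 0.0342) than in control, and both calls were lost without control replicate 1 or 2 (values from -0.58 to -0.88), without DMBA replicate 2 (-0.50) and without TAM long replicate 2 (-0.56). Its relative *Col6a6* went the other way, from 0 and 1 counts in control to 29 and 54 in DMBA+TAM, a ratio of 342 (95% exact interval, 59.7 to 13660).

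The network genes had the largest median change of the classes in DMBA+TAM (log2 8.16 against control), though *Col8a2* rose by only 2.92. They took 7.28% to 10.4% of the summed collagen level there against 0.746% to 1.67% elsewhere. These shares and the ranks below use the length column. The deposited FPKM imply 3130 bases for *Col10a1*, as in the column, but 1781 against 5930 for *Col1a1*. With those lengths the network share would be smaller, and shares and ranks were not recomputed. *Col10a1*, the short chain known from the growth plate of cartilage, whose start region is shown above, had 0 counts in both control libraries, 1 and 0 in TAM short, 2 and 1 in DMBA and 0 in both TAM long libraries. In DMBA+TAM it had 3065 and 2068 counts, or 516 and 290.5 FPKM, and held ranks 4 and 6 among the 44 members. It was at least 3610-fold higher than control and at least 4568-fold higher than TAM long, with 3 counts set in each library at 0, and 8259-fold higher than DMBA (95% exact interval, 2825 to 40060). Cartilage markers summed to 1.58 and 1.76 CPM in these libraries against 2.14 to 7.04 elsewhere, with *Acan*, *Matn1* and *Hapln1* at 0, and bone markers to 39.5 and 40.0 CPM against 2.50 to 5.92, with *Bglap*, *Ibsp* and *Phex* at 0. The cartilage sums lie near the level of 3 counts there (1.58 and 1.32 CPM), so no fall can be read from them. Of 2 cartilage markers tested none was called against control, and of 2 bone markers 1 was higher (29.0% of all genes tested). The part of these markers in the level of *Col10a1* was not tested. The other groups, with more counts, also had 2 or 3 cartilage markers (*Matn1* in each) and 1 to 3 bone markers at 0.

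*Col8a1* and *Col8a2* encode the chains of type VIII collagen, known from vessel walls and the cornea, and they responded unequally. *Col8a1* had 1.04 FPKM in both control libraries, 0.905 and 0.690 in TAM short, 6.65 and 2.96 in DMBA, 4.11 and 5.40 in TAM long, and 315 and 278 in DMBA+TAM. *Col8a2* had 1.51 and 1.17 in control, 0.390 and 0.349 in TAM short, 1.03 and 1.501 in DMBA, 0.417 and 0.928 in TAM long, and 12.04 and 8.42 in DMBA+TAM. *Col8a1* rose in DMBA (log2 2.22 ± 0.35), TAM long (2.19 ± 0.35) and DMBA+TAM (8.16 ± 0.41, adjusted p = 1.13e-07). *Col8a2* rose only in the last (2.92 ± 0.36, 5.45e-05) among these and fell in TAM short (-1.84 ± 0.42, adjusted p = 0.0186). The ratio of *Col8a1* to *Col8a2*, chosen after the values were seen, was 0.687 and 0.889 in control, 2.32 and 1.98 in TAM short, 6.46 and 1.97 in DMBA, 9.85 and 5.81 in TAM long, and 26.2 and 33.0 in DMBA+TAM.

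Of the 9 FACIT genes, 6 were tested and 3 rose in DMBA+TAM (29.0% of all genes tested), namely the 3 with the highest levels. *Col12a1*, which coats fibrils of type I collagen, had 2.24 and 1.78 FPKM in control, 2.45 and 1.82 in TAM short, 7.89 and 6.67 in DMBA, 3.32 and 7.004 in TAM long, and 138 and 109 in DMBA+TAM. *Col16a1* had 2.95 and 1.96 in control, 1.82 and 1.89 in TAM short, 11.8 and 10.8 in DMBA, 7.26 and 8.95 in TAM long, and 45.8 and 42.7 in DMBA+TAM. Both were above control in DMBA and in TAM long without overlap, with log2 fold changes of 1.86 ± 0.32 and 1.36 ± 0.32 for *Col12a1* and 2.20 ± 0.19 and 1.72 ± 0.18 for *Col16a1*. *Col14a1*, found on mature fibrils, had 5.03 and 5.01 in control, 4.21 and 3.30 in TAM short, 6.29 and 6.04 in DMBA, 3.52 and 4.68 in TAM long, and 115 and 123 in DMBA+TAM. It passed against control only in DMBA+TAM (log2 4.57 ± 0.18, adjusted p = 2.9e-08), and the values of *Col12a1* and *Col16a1* there were 5.94 ± 0.37 and 4.17 ± 0.20. *Col9a2*, *Col9a3* and *Col20a1* did not pass in any of the comparisons, with levels between 0 and 1.38 FPKM.

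Of the 4 transmembrane collagens, which stay in the plasma membrane of the cell that makes them, 3 were tested. In DMBA+TAM against control 1 of these, *Col13a1*, rose and none fell, where 29.0% of all genes tested were higher and 35.3% lower. The class sum in DMBA+TAM, 4.72 ± 2.09 FPKM, lay near those of DMBA (5.64 ± 0.751) and TAM long (4.82 ± 0.352), with control at 2.93 ± 0.604 and TAM short at 1.70 ± 0.0200. *Col23a1* had 2.45 and 1.76 FPKM in control, 1.196 and 1.22 in TAM short, 4.76 and 3.59 in DMBA, 4.09 and 3.40 in TAM long, and 1.96 and 1.40 in DMBA+TAM. It was higher than control in DMBA (log2 0.98 ± 0.22, adjusted p = 0.00522) and TAM long (0.83 ± 0.22, 0.0129), lower in DMBA+TAM than in DMBA (-1.33 ± 0.27, 0.00224), and overlapped between DMBA+TAM and control (-0.35 ± 0.28). *Col13a1*, found at cell contacts and the neuromuscular junction, had 0.785 and 0.684 in control, 0.464 and 0.438 in TAM short, 0.592 and 1.21 in DMBA, 0.735 and 0.775 in TAM long, and 3.998 and 1.53 in DMBA+TAM. It rose there (log2 1.88 ± 0.51, adjusted p = 0.00924), and replicate 1, the library with the lower skeletal muscle level, had the higher value (24 counts, against 11 in replicate 2). The part of skeletal muscle RNA in these levels was not tested. Without replicate 1 the value was 1.05 and did not pass (adjusted p = 0.149). *Col25a1*, a collagen of neurons, had 6 and 2 counts in control, 2 and 0 in TAM short, 58 and 14 in DMBA, 19 and 25 in TAM long, and 2 and 0 in DMBA+TAM, and passed in DMBA against control (log2 2.84 ± 0.84, adjusted p = 0.0193), though not without DMBA replicate 1 (1.70), control replicate 1 (3.74) or control replicate 2 (2.31). *Col28a1*, which is related to the type VI chains and known from peripheral nerve, had 4 and 1 counts in control, 4 and 2 in TAM short, 54 and 26 in DMBA, 16 and 36 in TAM long, and 14 and 40 in DMBA+TAM. At their depths this was a rise in DMBA (log2 3.68 ± 0.77), TAM long (3.00 ± 0.80) and DMBA+TAM (5.37 ± 0.77, adjusted p = 0.00017). Markers of enteric glia and neurons summed to 17.0 and 18.6 CPM in control, 50.6 to 64.7 in DMBA and TAM long, and 63.8 and 78.5 in DMBA+TAM, and against control 6 of 7 were higher in both DMBA and TAM long and 3 of 7 in the combination, where 24.5%, 23.2% and 29.0% of all genes tested were higher. Their part in the values of *Col25a1* and *Col28a1* was not tested. *Col26a1* had at most 5 counts in a library and was not tested.

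**Figure D3:**
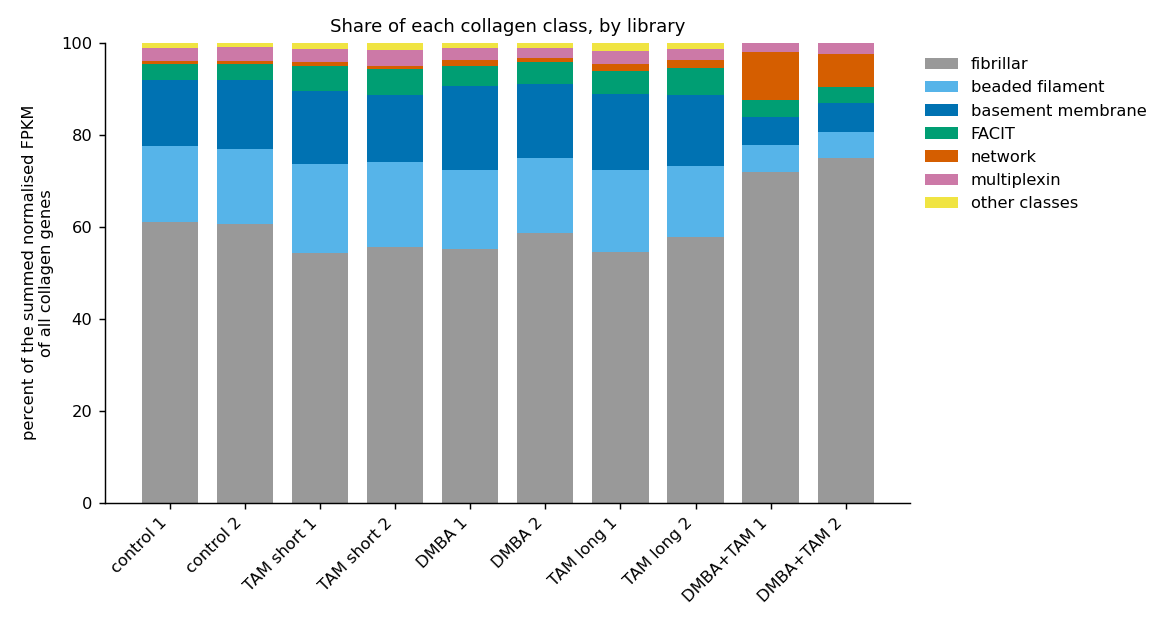
Share of each collagen class in the summed normalised FPKM of the 44 genes (stacked bars, percent) in each of the 10 libraries. The basement membrane share is 6.14% and 6.24% in the DMBA+TAM libraries, below all others, and the network share of 10.4% and 7.28% is above all others.

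Fewer members were called in the single treatments, and the 3 comparisons with control that follow share the control libraries. In DMBA against control, 21 members rose and 1, *Col6a4*, fell (47.8% of all genes called, 24.5% higher, 23.3% lower), with a median log2 fold change of 1.02 against 0.07 for all genes tested. The rises took in 6 of 10 fibrillar, 4 of 5 basement membrane and both multiplexin genes. *Col28a1*, *Col25a1*, *Col8a1* and *Col16a1* had the largest fitted values among those that rose, and *Col1a1* (0.44 ± 0.18, adjusted p = 0.0713) did not pass.

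In TAM long against control, 9 members rose and 2 fell (46.0% of all genes called, 23.2% higher, 22.8% lower), with a median of 0.21 against 0.05, so that the share of members that rose was near that of all genes. The 2 that fell were *Col1a1* and *Col6a4*. All 9 that rose, *Col5a2*, *Col27a1*, *Col4a5*, *Col4a6*, *Col8a1*, *Col12a1*, *Col16a1*, *Col23a1* and *Col28a1*, also rose in DMBA. Fibroblast markers summed to 583 to 824 CPM in DMBA and TAM long against 221 to 257 in control, and their part in these calls was not tested. The 9 genes are 24.3% of the members tested, and 18.6% of all genes tested rose in both. The count in TAM long was 6 without control replicate 2, and *Col5a2*, *Col12a1* and *Col28a1* each lost the call without control replicate 2 or TAM long replicate 2, *Col23a1* without control replicate 2 or TAM long replicate 1, and *Col4a6* without control replicate 1 or TAM long replicate 1. In DMBA, *Col18a1* (0.39 ± 0.13) lost its call without control replicate 1, control replicate 2 or DMBA replicate 1.

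In TAM short against control no member rose and 11 fell (14.3% of all genes called, 6.52% higher, 7.80% lower), with a median of -0.63 against -0.04. At an unadjusted p under 0.05, 18 fell and none rose. The 11 were *Col1a1*, *Col1a2*, *Col3a1*, *Col5a1*, *Col4a1*, *Col4a2*, *Col6a1*, *Col6a2*, *Col15a1*, *Col18a1* and *Col8a2*, with log2 fold changes from -0.63 to -1.84. The fitted value of *Col8a2* was -1.84 and *Col1a1* fell 3.02-fold. The count rests on few libraries, as it was 5 without control replicate 1, 7 without control replicate 2, 9 without TAM short replicate 1 and 1, *Col1a1*, without TAM short replicate 2. Fibroblast markers summed to 223 to 265 CPM in TAM short, overlapping with control, though of 9 tested 2 were called higher and 2 lower. In TAM short both libraries were below both of control for the markers of endothelium (74.2 and 86.1 against 92.8 and 102 CPM, 2 of 8 called lower), fat cells (57.0 and 58.6 against 141 and 217 CPM, 1 of 7 called lower) and enteric glia and neurons (6.80 and 10.3 against 17.0 and 18.6 CPM, none of 7 called). Both were above control for the markers of macrophages (323 and 308 against 133 and 196 CPM, 3 of 8 called higher), epithelium (26120 and 26750 against 22820 and 23670 CPM, 1 of 10 called higher) and skeletal muscle (12.3 and 13.5 against 8.24 and 8.53 CPM, none of 6 called). The part of these markers in the falls was not tested.

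TAM long and TAM short, which bear the same treatment with another label, differed in 22 members, all higher in TAM long (42.2% of all genes called, 22.0% higher, 20.3% lower). *Col16a1* (log2 2.13 ± 0.19), *Col8a1* (2.56 ± 0.36) and *Col4a5* (1.79 ± 0.25) were among them, and the basement membrane median was 1.26. Markers higher in TAM long than in TAM short were 9 of 9 of fibroblasts, 8 of 8 of smooth muscle, 6 of 7 of enteric glia and neurons and 5 of 8 of endothelium. Of 10 epithelial markers 1 was higher and 4 lower, and of 8 macrophage markers 1 and 2. The part of these markers in the 22 calls was not tested. Between TAM long and DMBA, whose libraries both bear an L, 7 members differed, all lower in TAM long (2.70% of all genes called, 1.24% higher, 1.46% lower). These were *Col1a1* (log2 -1.31 ± 0.18, adjusted p = 0.00853), *Col1a2* (-0.84), *Col5a3* (-1.06), *Col4a1* (-0.82), *Col15a1* (-0.81), *Col6a1* (-0.83) and *Col6a2* (-0.76). This count was 11 without DMBA replicate 2, 0 without TAM long replicate 1 and 1 without TAM long replicate 2.

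**Figure D4:**
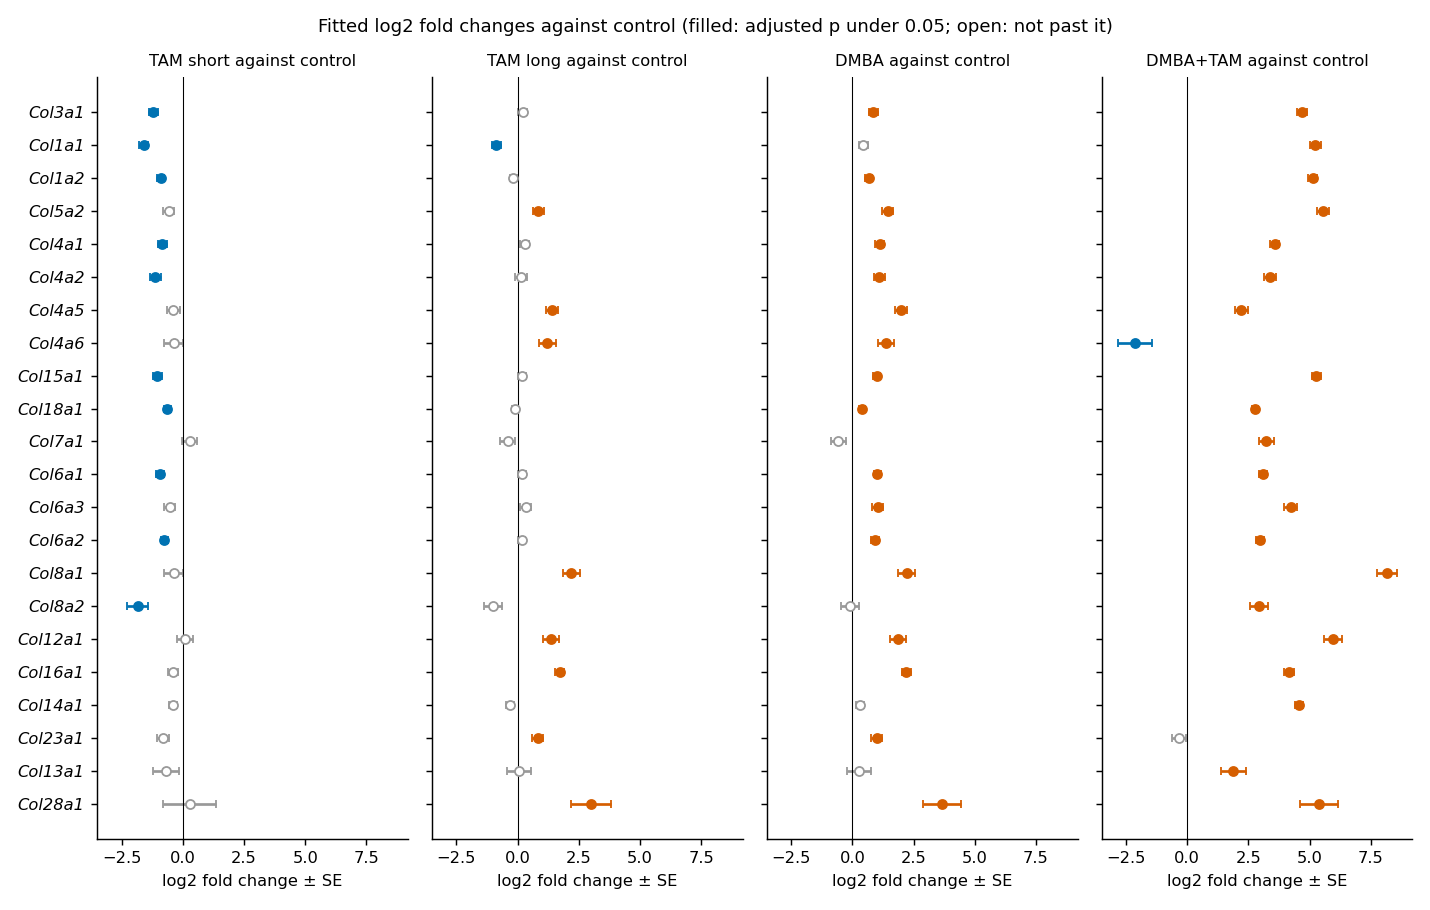
Fitted log2 fold changes against control with their standard errors for 22 named collagen genes in TAM short, TAM long, DMBA and DMBA+TAM (2 libraries a group, shared control). Filled points passed an adjusted p of 0.05, orange higher and blue lower, and *Col10a1*, *Col6a4* and *Col25a1* are left out because a group had few or no counts. *Col4a6* is kept, although it had 1 count in each DMBA+TAM library and its fitted value there depends on the prior count.

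The combination was also set against the sum of both single treatments. The interaction of DMBA and TAM long, that is the change from TAM long to DMBA+TAM less the change from control to DMBA, passed in 23 of 37 members, 18 above and 5 below 0 (48.2% of all genes called, 21.6% above and 26.5% below 0). It was 3.61 ± 0.27 on the log2 scale for *Col3a1*, 5.68 ± 0.27 for *Col1a1* and 4.62 ± 0.22 for *Col1a2*, so their level in DMBA+TAM was above the sum of the single changes on the log2 scale. Both single-treatment groups of this contrast bear the L and control the S, so a difference that goes with the letter would enter that sum 2 times and cannot be told apart from the interaction. For *Col16a1* it was 0.25 ± 0.25 and for *Col27a1* -0.16 ± 0.46, which did not pass, and the 5 below 0 were *Col4a5*, *Col4a6*, *Col6a4*, *Col23a1* and *Col25a1*, of which all but *Col6a4* had fitted values above 0 in both DMBA and TAM long against control. *Col10a1* is counted as not past, but its interaction could not be estimated (SE 27871.8), as control and TAM long both had 0 counts.

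Genes that process, cross-link and bind collagen were followed with a list of 48, of which 44 were tested. In DMBA+TAM against control 36 rose and 2 fell, in DMBA 32 and 1, in TAM long 30 and 2, and in TAM short 3 and 4, with medians of 3.98, 1.14, 0.88 and -0.24. Of all genes tested, 29.0% were higher and 35.3% lower in the first of these comparisons, 24.5% and 23.3% in DMBA, 23.2% and 22.8% in TAM long, and 6.52% and 7.80% in TAM short, where the counts of the list were near these shares. The list was chosen from textbook roles with earlier results of these data known.

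Among the hydroxylases of proline and lysine, 10 of 12 rose in DMBA+TAM and *P4hb* fell, where 29.0% of all genes tested were higher and 35.3% lower. *P4hb*, the beta subunit of prolyl 4-hydroxylase and a general disulfide isomerase, had 1033 and 1307 FPKM in control, 540.3 and 482 in TAM short, 217.5 and 286 in DMBA, 221 and 199 in TAM long, and 305.5 and 309.8 in DMBA+TAM. It was below control in every other group without overlap, with log2 fold changes from -1.19 ± 0.18 in TAM short to -2.48 ± 0.18 in TAM long. *Plod3*, a lysyl hydroxylase, had 9.60 and 9.64 in control, 9.76 and 10.3 in TAM short, 9.13 and 10.2 in DMBA, 8.03 and 8.34 in TAM long, and 64.7 and 59.8 in DMBA+TAM, and passed against control there alone (log2 2.69 ± 0.12).

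Of the 6 genes of folding and export, 3 rose in DMBA+TAM (29.0% of all genes tested). *Serpinh1*, the collagen chaperone HSP47, had 17.0 and 12.6 FPKM in control, 21.6 and 16.2 in TAM short, 40.7 and 32.9 in DMBA, 46.3 and 57.6 in TAM long, and 382 and 392 in DMBA+TAM (log2 4.70 ± 0.23). *Mia3*, which loads procollagen into transport carriers, had 29.1 and 32.4 in control, 33.1 and 36.3 in TAM short, 49.8 and 45.4 in DMBA, 39.2 and 44.5 in TAM long, and 36.5 and 31.9 in DMBA+TAM. It rose in DMBA (0.63 ± 0.12) and TAM long (0.44 ± 0.12) but did not pass in DMBA+TAM (0.15 ± 0.13).

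All 6 tested genes of propeptide cleavage and all 5 of cross-linking rose in DMBA+TAM, against 29.0% of all genes tested. *Bmp1*, the procollagen C-proteinase, had 5.02 and 4.83 FPKM in control, 3.51 and 3.29 in TAM short, 7.50 and 6.18 in DMBA, 5.96 and 5.80 in TAM long, and 148 in both DMBA+TAM libraries (log2 4.91 ± 0.14), and its enhancer *Pcolce* had 4.58 to 5.09 in control and TAM short, 9.27 to 13.7 in DMBA and TAM long, and 187 and 183.5 in DMBA+TAM. *Lox*, lysyl oxidase, had 0.732 and 0.619 in control, 0.782 and 0.620 in TAM short, 2.57 and 2.96 in DMBA, 2.06 and 3.14 in TAM long, and 288 and 255 in DMBA+TAM. It rose by 8.64 ± 0.26 on the log2 scale (adjusted p = 1.13e-08) and its relative *Loxl3* by 6.76 ± 0.23, from 0.468 and 0.763 to 67.1 and 66.4 FPKM.

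All 6 tested proteoglycans of the fibril surface rose in DMBA+TAM against control (29.0% of all genes tested). *Ogn* was lower in DMBA+TAM than in DMBA (log2 -0.63 ± 0.19) and TAM long (-1.04 ± 0.19), where the other 5 were higher. *Bgn* (biglycan) had 25.3 and 24.6 FPKM in control, 22.5 and 17.9 in TAM short, 55.99 and 50.2 in DMBA, 30.2 and 35.1 in TAM long, and 922 and 976.5 in DMBA+TAM, and *Dcn* (decorin) went from 69.8 and 66.2 in control to 627 and 606 (log2 5.25 ± 0.17 and 3.18 ± 0.17). Of 9 tested receptors, 6 rose in DMBA+TAM against control and *Ddr1* fell (-1.30 ± 0.15). Against DMBA 5 were higher and 3 lower (25.2% and 29.9% of all genes tested), and against TAM long also 5 and 3 (25.3% and 29.9%). *Itgb1*, the common beta chain of the collagen-binding integrins, had 123 and 121 in control, 126 and 118.5 in TAM short, 159 and 134 in DMBA, 162.5 and 193 in TAM long, and 324 and 307 in DMBA+TAM. *Mrc2*, which takes up collagen for breakdown, had 1.95 and 1.47 in control, 1.25 and 0.782 in TAM short, 3.80 and 3.19 in DMBA, 2.04 and 1.98 in TAM long, and 62.8 and 70.4 in DMBA+TAM, with log2 fold changes of 1.37 ± 0.14 for *Itgb1* and 5.28 ± 0.22 for *Mrc2*.

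**Figure D5:**
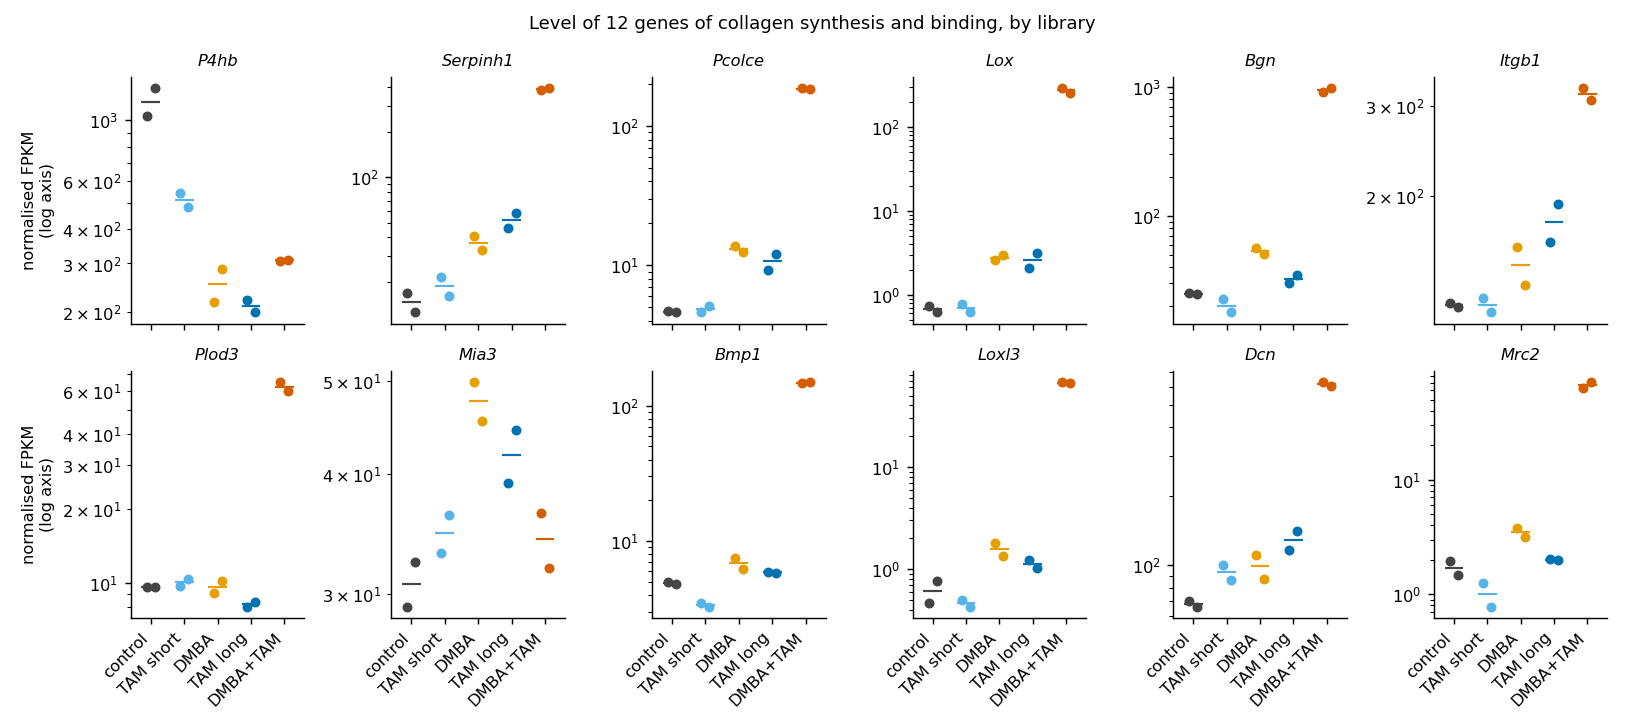
Level of 12 genes of collagen synthesis, cross-linking and binding in normalised FPKM (log axis) in each group, with 1 point per library and a line at the mean of 2 libraries. *Lox*, *Loxl3*, *Bmp1* and *Mrc2* stand far above all other groups in DMBA+TAM, *P4hb* is highest in control, and *Mia3* is highest in DMBA.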

How the data were processed

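RNA-seq was compared in 10 libraries of organoids, 2 in each of 5 groups. The authors mapped reads with TopHat to mouse (build GRCm38.p6 per the labels) and counted them per gene with HTSeq, and deposited raw read counts and FPKM values for each library in 1 table. The FPKM values deposited by the authors imply a gene length that is, for the members, 1.0 to 3.33 times shorter than the length column, so levels here were recomputed from the counts, the length column and TMM totals. The deposited columns of the authors' own comparisons (fold changes and p-values) were not used, and 5 of 47074 lines named no gene.

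Counts were filtered with filterByExpr and fitted with edgeR 4.0.16 (limma 3.58.1, R 4.3.3) with 1 mean per group over all 10 libraries, TMM totals, the quasi-likelihood test and Benjamini-Hochberg adjustment over 16179 genes, for 9 pairs of groups and 1 interaction. Lone values against 0 used a floor of 3 counts per library, and exact intervals (95%) cover counting error only. With 2 libraries against 2, an exact permutation test cannot go below p = 0.333 (two-sided), so none is given. In simulated counts for DMBA+TAM against control, 91.5% of 200 genes changed 4-fold were recovered, and 5.67% of the calls were false. The 200 were drawn from genes with higher counts, and all other genes were left unchanged, whereas 64.3% of all genes tested were called in the data. The simulation therefore does not give the power for members with few counts or under so broad a change. Alternatives were DESeq2 1.42.0, library size only, no filter, only the groups compared, replicate block, limma on log2(FPKM + 1) and log2(FPKM + 0.1), thinning to 1592366 counts, a fold limit (absolute log2 value of 1 or more), and leaving out each library (the lone library is then assumed to vary like the other groups).

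Values in every library are given for *Col1a1*, *Col1a2*, *Col3a1* and *Col5a2*, for up to 3 genes with the highest mean FPKM in each other class, for members called against their class, and for 2 genes of each pathway role. The members and lists were chosen with earlier results of these data known. Exons of the members overlapped those of other genes by at most 6.07%.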

Additional observations from a re-analysis of the deposited data

Results flagged for a closer look

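The interaction of DMBA and TAM long, tested by edgeR's quasi-likelihood test over all genes, passed for 18 collagen genes above 0 and 5 below 0, where it passed for 48.2% of all genes tested (21.6% above and 26.5% below 0). Each of these tests compares the change from TAM long to DMBA+TAM with the change from control to DMBA, and of these 4 groups the DMBA+TAM libraries are the shallow ones with few epithelial markers. DMBA and TAM long both bear the L of the library names and control the S, and a difference that goes with this letter cannot be told apart from the interaction. Among the fibrillar genes it was 3.61 for *Col3a1*, 5.68 for *Col1a1*, 4.62 for *Col1a2* and 3.26 for *Col5a2* on the log2 scale. In the basement membrane and next to it, it was 2.17 for *Col4a1*, 2.14 for *Col4a2*, 4.10 for *Col15a1*, 2.48 for *Col18a1* and 4.20 for *Col7a1*. The chains of type VI had 1.90 (*Col6a1*), 1.89 (*Col6a2*) and 2.86 (*Col6a3*), those of type VIII 3.75 (*Col8a1*) and 4.02 (*Col8a2*), and *Col12a1* and *Col14a1* 2.72 and 4.56.

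Below 0 stood *Col4a5* (-1.18), *Col23a1* (-2.16), *Col4a6* (-4.72), *Col25a1* (-4.88) and *Col6a4* (-9.02). The last 3 had 0 to 2 counts in the DMBA+TAM libraries, so their fitted values depend on the prior count and are no bound. *Col4a5* lost its call without control replicate 2, TAM long replicate 1 or DMBA+TAM replicate 2, and *Col25a1* without control replicate 2, DMBA replicate 1, TAM long replicate 2 or DMBA+TAM replicate 2.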

How the results depend on the processing

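Called members kept their direction under every alternative run, in each of the 10 comparisons. With a library left out, the 29 calls of DMBA+TAM became 26 to 28 against control and 27 to 28 against DMBA, TAM long and TAM short, the 22 of DMBA against control 16 to 22, the 22 of TAM long against TAM short 16 to 23, and the 23 of the interaction 21 to 25. In TAM long against control the 11 calls became 7 after thinning and 7 with the fold limit, and 6 to 10 with a library left out, and with library size only 15 were called, 14 higher and 1 lower. In TAM short against control the 11 became 7 with limma on log2(FPKM + 1), 7 on log2(FPKM + 0.1), 7 after thinning, 5 with the fold limit and 1 to 9 with a library left out. In TAM long against DMBA the 7 became 12 with DESeq2, 17 with no filter, 3 with library size only, 3 and 2 with limma, 4 after thinning, 2 with the fold limit, 0 to 11 with a library left out, and 0 by edgeR with only the groups compared, where the full fit had 18 lower at an unadjusted p under 0.05. The cause was not tested. Values that changed sign, none of them called, were *Col23a1* in DMBA+TAM against control (0.14 with library size only, 0.12 and 0.16 with limma) and *Col25a1* (-0.01 with no filter, -0.35 after thinning, -0.47 without control replicate 2, -5.06 without DMBA+TAM replicate 1 against 1.15 without replicate 2). Library size alone moved the median of all genes by 0.48 in DMBA+TAM against control, and DESeq2 by at most 0.09 in any comparison. As a percent of all counts, the ratio of DMBA+TAM to control was 44.2 for fibrillar, 15.4 for basement membrane, 25.4 for multiplexin, 13.3 for anchoring fibril, 13.9 for beaded filament, 46.7 for FACIT, 357 for network, 1.88 for transmembrane and 35.9 for all collagen genes. With the deposited FPKM, an alternative chosen after seeing the data, chain ratios in control and DMBA+TAM were 1.18 and 1.29 (*Col1a1* to *Col1a2*), 1.03 and 1.17 (*Col4a1* to *Col4a2*), 0.553 and 0.400 (*Col5a1* to *Col5a2*), and 2.06 and 2.23 (*Col6a1* to *Col6a2*).

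The replicate numbers name libraries only. Deviations of same-numbered libraries correlated at -0.0414 to 0.26 over 10 pairs of groups, and with the replicate block 29 members were called in DMBA+TAM against control, 29 against DMBA, 29 against TAM long, 27 against TAM short, 23 in DMBA against control, 12 in TAM long and 12 in TAM short against control, 8 in TAM long against DMBA, 23 in TAM long against TAM short and 24 in the interaction. The DMBA+TAM libraries, with 1592366 and 1915270 counts, limit what could be seen of low members such as *Col4a6* and *Col25a1*.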
